A study of Mus musculus with 18 samples.

Results

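The 1105 genomic regions described here carried dimethylated lysine 79 of histone H3 (H3K79me2) in mouse Th2 and Th1 cells but not in naive CD4 T cells. They were chosen by presence in peak lists. All broad peaks of 9 lists on chromosomes 1 to 19 and X were merged into 60558 union regions, and a list counted as present where its peaks covered at least 50% of a region. Kept were the regions present in at least 2 of 3 Th2 lists and at least 2 of 3 Th1 lists and in 0 of 3 naive lists. They made up 1.82% of the union regions and, with 16.3 of 366 Mb, 4.46% of the union bases. Since presence in Th2, Th1 and naive lists chose them, every value that sets Th2 or Th1 against naive cells below is a description and was not tested.

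The series, on the part played by DOT1L in T helper cells, holds 3 H3K79me2 libraries each of Th2, Th1 and naive cells and an input library beside each. Th2 cells were grown for 4 days from enriched CD4 T cells on plates coated with antibodies to CD28 and CD3, in medium that held IL-4, IL-2 and an antibody to IFNg, and were sorted by the reporters of the 4C13R mouse, AmCyan for IL-4 or dsRed for IL-13. Th1 cells were grown for the same time on the same coated antibodies, with an antibody to IL-4 beside IL-12 and IL-2, and were sorted by YFP from an IFNg-YFP reporter mouse. Naive cells were CD44- CD62L+ cells sorted straight from spleens of WT mice. Cd8a and Cd8b1, which encode the CD8 coreceptor, were covered by 100% in each of the 3 naive lists. Cd8a averaged 7.28 ± 7.42% in Th2 and 0% in Th1 lists, and Cd8b1 23.3 ± 5.10% in Th2 and 9.01 ± 2.47% in Th1 lists (SD, n = 3 each). Cd4 was covered by 80.0 to 86.4% in all 9 lists. The labels call all samples CD4+ T cells, and the part of this CD8 signal in the absence of peaks from naive lists was not tested. The genotype label of every sample was WT, and no age was given. Sorting on reporters selects the cells that express the named cytokines at the end of culture, so both polarised groups are cytokine-producing fractions. Culture, stimulation and reporter strain set both polarised groups apart from naive cells, and their parts in a difference cannot be told apart. Reporter strain and sorting marker also differed between Th2 and Th1 cells. Their parts and that of polarisation cannot be told apart in any difference between Th2 and Th1 cells. The labels do not say if replicates within a group were separate mice, and a p-value below covers the scatter of these libraries alone, which may be technical.

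H3K79me2 is written by DOT1L, the only known H3K79 methyltransferase of mammals, which acts together with factors of transcription elongation. The mark therefore lies along the bodies of transcribed genes, usually densest in the stretch after the start, and it can spread as a broad domain over a whole gene. When a naive CD4 T cell meets antigen it leaves quiescence, divides, raises glycolysis and lipid synthesis, and under IL-12 or IL-4 takes on the Th1 programme of T-bet or the Th2 programme of GATA3. A set of genes for growth, cytokine response and effector function is shared by both programmes.

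Several regions held microRNA genes, and 5 mature microRNAs are shown out of those whose genes such regions span. Among the others, not shown, were Mir5129 in the Zeb2 region, Mir3089, Mir574 and Mir101b. The mature forms, from RefSeq on GRCm38.p6 (mm10), are written 5′ to 3′ with the seed (bases 2 to 8) in capitals.
mmu-miR-155-5p: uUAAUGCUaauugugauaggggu
mmu-miR-182-5p: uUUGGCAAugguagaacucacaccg
mmu-miR-96-5p: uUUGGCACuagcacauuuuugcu
mmu-miR-183-5p: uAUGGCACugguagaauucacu
mmu-miR-148a-3p: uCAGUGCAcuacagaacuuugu
These 5 were picked after their regions were seen, and the 5 seeds all differ. Mir155, a microRNA needed for normal T helper responses in mice, lay in a 23.4-kb region on its host transcript Mir155hg (chr16:84693864-84717225). That region was covered by 99.6, 82.0 and 92.7% in the Th2 lists, 82.7, 80.0 and 65.3% in the Th1 lists and 39.9, 32.3 and 36.9% in the naive lists. It thus held naive peaks too, below the 50% limit. Mir183, Mir96 and Mir182 form a cluster on 1 host transcript, Mirc35hg, and miR-182 is known to be induced by IL-2 in activated mouse T helper cells. Their 14.3-kb region (chr6:30160657-30174971) was covered by 64.0, 55.03 and 53.9% in Th2 lists and by 97.2, 90.8 and 98.1% in Th1 lists, and no naive list had a peak there. Mir148a lay in a 3.54-kb region (chr6:51267008-51270545) covered by 97.6, 77.6 and 86.0% in Th2 lists and by 77.0, 98.1 and 64.8% in Th1 lists, again with no naive peak.

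Gene starts inside the regions gave the other sequences. Of the 8 widest regions that hold the start of a gene named below for its width, its strength or its place on a gene list, 4 had that start outside every naive peak and inside the peaks of all 6 Th2 and Th1 lists, and the 300 bases from 250 before to 50 after those 4 starts are printed. They are from RefSeq on GRCm38.p6, 5′ to 3′ on the gene's strand, and capitals mark matches on either strand to letters bound by AP-1, NFAT and the KLF and SP families, spelled out under the last sequence.
Gpm6b, chrX:166238693-166238992, plus strand: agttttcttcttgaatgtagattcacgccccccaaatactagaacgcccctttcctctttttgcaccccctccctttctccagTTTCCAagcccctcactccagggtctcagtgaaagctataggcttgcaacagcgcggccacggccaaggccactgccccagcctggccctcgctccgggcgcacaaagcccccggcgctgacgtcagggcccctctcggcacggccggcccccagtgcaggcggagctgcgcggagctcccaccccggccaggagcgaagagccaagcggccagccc
Sema7a, chr9:57939862-57940161, plus strand: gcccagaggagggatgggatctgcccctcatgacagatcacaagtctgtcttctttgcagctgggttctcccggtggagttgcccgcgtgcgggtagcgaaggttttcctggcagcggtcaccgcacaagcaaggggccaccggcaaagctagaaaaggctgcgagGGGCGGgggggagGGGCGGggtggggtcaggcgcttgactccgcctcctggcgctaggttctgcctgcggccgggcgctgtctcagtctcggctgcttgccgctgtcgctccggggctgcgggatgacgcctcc
Zeb2, chr2:45110228-45110527, minus strand: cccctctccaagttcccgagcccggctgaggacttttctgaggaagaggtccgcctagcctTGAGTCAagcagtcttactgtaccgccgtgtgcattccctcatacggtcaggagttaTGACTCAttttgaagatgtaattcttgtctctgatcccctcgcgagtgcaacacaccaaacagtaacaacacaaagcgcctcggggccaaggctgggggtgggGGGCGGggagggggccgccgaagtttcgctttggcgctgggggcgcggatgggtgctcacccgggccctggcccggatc
Tbx21, chr11:97115282-97115581, minus strand: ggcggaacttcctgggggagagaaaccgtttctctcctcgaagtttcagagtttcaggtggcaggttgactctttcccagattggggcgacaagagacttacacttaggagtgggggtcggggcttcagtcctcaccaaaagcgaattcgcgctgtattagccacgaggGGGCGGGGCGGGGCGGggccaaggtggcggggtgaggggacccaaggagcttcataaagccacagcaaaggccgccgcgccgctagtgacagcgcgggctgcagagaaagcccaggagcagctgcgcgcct
Zeb2 held 2 AP-1 matches and 1 KLF and SP match, Tbx21 held 3 overlapping KLF and SP matches, Sema7a held 2 of them and Gpm6b held 1 NFAT match. For Zeb2 the start shown is the one of 4 listed starts that lay inside the region. Naive lists covered 84.2, 83.4 and 86.5% of the Sema7a gene, though not the start shown, and 0% of Gpm6b, Zeb2 and Tbx21. Over all 237 start windows of 196 genes inside the regions, the KLF and SP letters GGGCGG were found in 65.0%, against 46.7% of all 21044 windows of coding genes. The 8 other motifs were found at shares closer to those of all windows in percentage points. As a ratio to all windows, the STAT letters were raised nearly as much as GGGCGG. The AP-1 letters TGANTCA were in 6.33% of the windows inside the regions, against 7.04% of all windows. The T-box letters GGTGTGA were in 4.22%, against 3.67% of all. The letters AGATAA of the family of GATA3 were in 7.17%, against 9.68% of all. The STAT letters TTCNNNGAA were in 10.6%, against 7.77% of all. The RUNX letters TGTGGT were in 15.6%, against 14.8% of all, and the ETS letters CCGGAAG in 9.71%, against 11.7% of all. The E-box letters CACGTG of MYC were in 7.60%, against 7.91% of all, and the NFAT letters TGGAAA in 20.3%, against 19.5% of all. Median GC content was 60.7% in the windows inside the regions and 56.7% in all windows, so that GGGCGG, a GC-only motif, and GC content moved together and the part of GC in the motif share was not tested. A match is a description of letters and not a binding site.

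The regions were wide. Their median width was 6417 bp, against 990 bp for all union regions and 23022 bp for the 6139 regions present in all 9 lists. Regions present in 1 polarised type alone under the same limits were narrower, with 1382 bp for the 3233 Th2 regions and 1671.5 bp for the 1624 Th1 regions. Of the 1105, 403 (36.5%) spanned at least 10 kb and held 82.6% of the bases, 79 spanned at least 50 kb and 16 at least 100 kb. The 20 widest held 17.2% and the 100 widest 46.9% of all their bases. Some lay close together, with 403 (36.5%) within 10 kb of another, while 443 were more than 100 kb from the next.

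In the Th2 lists the regions took up 13.3, 13.2 and 14.4 Mb, or 5.73, 5.51 and 5.76% of all bases covered by those lists. Th1 lists gave 14.3, 13.4 and 12.6 Mb, or 5.97, 6.03 and 5.81%, and naive lists 2.38, 2.21 and 2.55 Mb, or 0.851, 0.804 and 0.897%. The naive lists were not the shorter ones: they covered 276 to 285 Mb in all, against 232 to 249.9 Mb in Th2 lists and 217 to 240.1 Mb in Th1 lists. Presence was complete in 552 regions (49.95%), which all 6 Th2 and Th1 lists marked, while 171 lacked 1 Th2 list, 206 lacked 1 Th1 list and 176 lacked 1 of each. The list that lacked most was Th1 replicate 3, present at 850 regions, against 1007 and 1076 in the other Th1 lists and 953, 963 and 1052 in the Th2 lists.

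Not all regions were bare in naive cells. In 491 (44.4%, 4.47 Mb, median width 4089 bp) no naive list had a single covered base. The highest naive list covered up to 10% of 112 regions, 10 to 25% of 187, 25 to 40% of 163 and 40 to 50% of 152. The 491 bare regions had a median distance of 20.2 kb to the nearest naive peak, 117 of them (23.8%) lay within 5 kb of one, and 133 lay more than 50 kb away. At the limit itself, 77 regions were within 5 points below the 50% naive limit and 94 were kept out by less than 5 points above it. The counts at the Th2 limit were 96 inside and 113 outside, and at the Th1 limit 106 and 126. The regions nearest inside the naive limit lay at Pdcd11 and Calhm2 (highest naive list 49.97%), Hira (49.8%) and Med7 and Havcr2 (49.8%), and the nearest outside at Litaf (50.03%), Nt5dc3 (50.05%) and Snx9 (50.1%). At the Th2 limit, judged by the second highest list, a region outside genes (50.05%), Jazf1 (50.2%) and Cenpp (50.2%) were inside and Rad18 (49.9%), Dock9 (49.9%) and Setbp1 (49.8%) outside. At the Th1 limit a region outside genes (50.04%), Rcn1 (50.1%) and Gsto1 and Gsto2 (50.2%) were inside and Melk (49.97%), Gm33195 (49.97%) and a region outside genes (49.9%) outside.

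The authors' fold enrichment ranks peaks within 1 list only. By the strongest peak in each region, the median region stood at percentile 74.1, 77.3 and 77.7 of all peaks in the 3 Th2 lists and at 74.0, 74.0 and 70.6 in the 3 Th1 lists. Peaks of the top 5% of their list lay in 67, 69 and 66 regions in Th2 lists and in 53, 62 and 55 in Th1 lists. The regions held 1.70 to 2.23 peaks on average in Th2 and Th1 lists. Ranking the strongest of them among single peaks can raise the percentile and these counts. No such values are given for other union regions, and a greater strength of the regions described here was not tested.

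Most regions lay on genes. A protein-coding gene overlapped 696 regions (63.0%), against 67.1% of all union regions and 97.3% of those present in all 9 lists. A long noncoding RNA gene alone overlapped 129 (11.7%, against 6.59% of all union regions), and 280 (25.3%, against 26.3%) overlapped neither kind of gene. Coding genes held 62.4% of the bases of the regions and 82.1% of all union bases.

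Among wide regions, those marked in Th2 and Th1 but not naive cells held a listed start of a gene less often than marked regions of the same width in general. Starts were listed for 17273 of the 21627 coding genes and for none on chromosome 18, so every share of starts here is a lower bound. Bhlhe40, Il10, Rgs1 and Maf lay whole inside a region but had no listed start there. The part of these gaps in the differences between sets was not tested. On the chromosomes other than 18, 179 of 1074 regions (16.7%) held a listed start of a coding gene, against 10.2% of all union regions, most of which were narrow. Among regions of 10 to 50 kb the share was 27.6%, against 53.3% of all union regions and 70.3% of regions present in all 9 lists of that width. At 50 kb or more it was 59.2%, against 69.6 and 74.4%, and at 2 to 10 kb 9.51%, close to the 10.4% of all union regions and below the 49.8% of regions in all 9 lists. Under 2 kb it was 1.02%, against 0.432% of all union regions. By place, the 179 regions with a listed start had a median width of 19.3 kb and 47 (26.3%) of them were bare in naive lists. The 517 regions on genes without a listed start had a median of 5.70 kb and 205 (39.7%) were bare. The 409 regions outside coding genes had a median of 4.45 kb and 239 (58.4%) were bare. Of the 179, 118 (65.9%) had no start covered in any naive list, and 38 (21.2%) had a start covered in at least 2 naive lists, so that in those a naive peak sat at the start. A start was covered in at least 2 Th2 lists in 137 of the 179 and in at least 2 Th1 lists in 134, so not all of these starts were marked in polarised cells either. No test was run on these shares, since regions are not replicates.

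**Figure D1:**
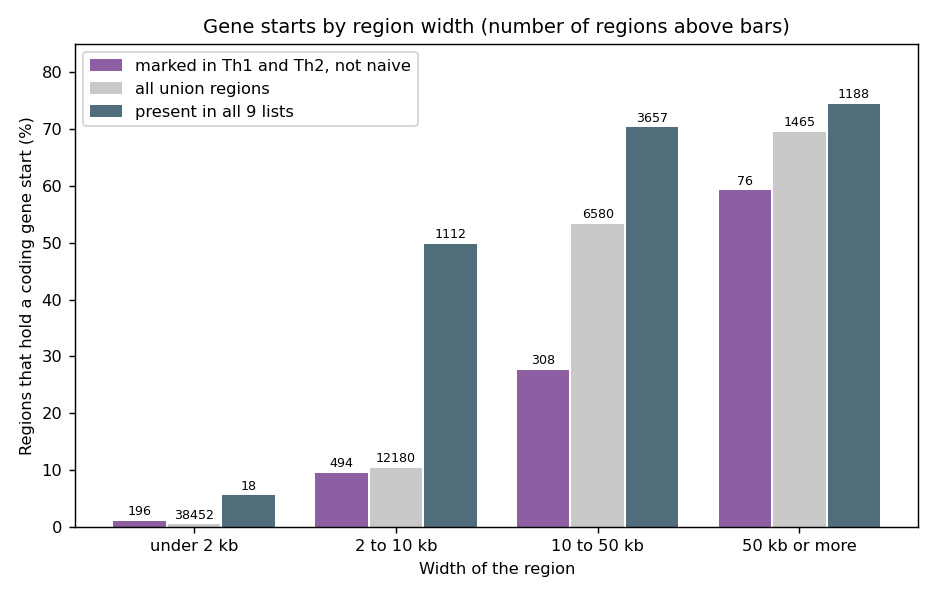
Share of regions that hold a listed start of a protein-coding gene (vertical axis, percent) by width of the region, for the regions marked in Th1 and Th2 but not naive lists, for all union regions and for regions present in all 9 lists; the numbers above the bars count regions off chromosome 18. Not all coding genes had a listed start. Between 10 and 50 kb the 3 bars stand at 27.6, 53.3 and 70.3%.

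The widest regions that all 6 Th2 and Th1 lists marked and no naive list touched mostly lay over genes. There were 192 regions of this kind, 3.17 Mb with a median of 8.95 kb, of which 121 overlapped a coding gene and 36 held a listed start. Of the 20 widest, which ran from 43.5 to 159 kb, 18 lay on coding genes. The widest lay on Gpm6b, a membrane proteolipid gene best known from neurons (chrX:166215235-166374271, 159 kb). It was covered by 96.3, 96.6 and 99.9% in Th2 lists and by 91.9, 87.8 and 87.9% in Th1 lists. Gpm6b overlaps Ofd1 in the annotation, but Gpm6b was the only coding gene under this region. Next was Farp1, a guanine nucleotide exchange factor (chr14:121068747-121219882, 151 kb), covered by 95.8, 93.0 and 98.3% in Th2 lists and by 99.4, 95.3 and 93.4% in Th1 lists. A further 33.3-kb region of Farp1 (chr14:121033262-121066559) had 97.3% or more in each of the 6 lists.

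Zeb2, a zinc-finger repressor that acts with T-bet in effector T cells, held a 107-kb region (chr2:45005602-45113076). Its coverage was 94.5, 94.9 and 95.02% in Th2 lists and 99.8, 100 and 98.1% in Th1 lists, with 0% in the 3 naive lists. Over the whole 134-kb gene, peaks covered 81.5 ± 1.60% in Th2, 88.1 ± 2.65% in Th1 and 0% in naive lists (SD, n = 3 each). The region was thus nearly full in the IL-4 and IL-13 producers as well as in the IFNg producers. Alcam, the adhesion molecule CD166 that binds CD6 on T cells, held 4 regions, of which an 83.4-kb one (chr16:52370370-52453743) was covered by 97.9, 99.8 and 100% in Th2 lists and by 99.1, 99.0 and 99.0% in Th1 lists. A 66.0-kb region beside it (chr16:52303076-52369107) had 87.5, 89.6 and 96.1% in Th2 lists and 97.2, 89.0 and 87.5% in Th1 lists.

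Other genes among the 20 widest serve signalling, metabolism and the cell cycle. Cdkn1a, which encodes the cyclin-dependent kinase inhibitor p21, held a 45.5-kb region (chr17:29055265-29100736) with 96.1, 92.4 and 97.1% in Th2 lists and 98.0, 96.2 and 91.6% in Th1 lists. Ak4, a mitochondrial adenylate kinase, held a 43.5-kb region (chr4:101419100-101462569) with 98.3, 99.2 and 98.3% in Th2 lists and 99.2, 97.3 and 98.7% in Th1 lists, each as 1 unbroken peak. Atp2b4, a calcium pump of the plasma membrane (64.9 kb), Nek6, a kinase of mitosis (56.6 kb), Ell2, a factor of transcription elongation (51.4 kb), and Bmpr1a, a receptor for bone morphogenetic proteins (44.5 kb), were covered by 78.8 to 99.9% in each of the 6 lists. Il10, the anti-inflammatory cytokine made by both Th2 and Th1 cells late in a response, held a 56.0-kb region (chr1:130981696-131037726). Its coverage was 95.5, 93.9 and 99.9% in Th2 lists and 85.8, 77.3 and 63.0% in Th1 lists, so the Th2 lists were all above the Th1 lists. The opposite order was seen at Srgap3 (89.9 kb), with 67.6, 70.2 and 56.3% in Th2 lists, against 99.1, 94.0 and 95.4% in Th1 lists. It was also seen at Pik3ap1, an adaptor of PI3K signalling (76.5 kb), with 80.0, 71.9 and 80.0% in Th2 lists, against 98.0, 96.4 and 96.1% in Th1 lists.

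**Figure D2:**
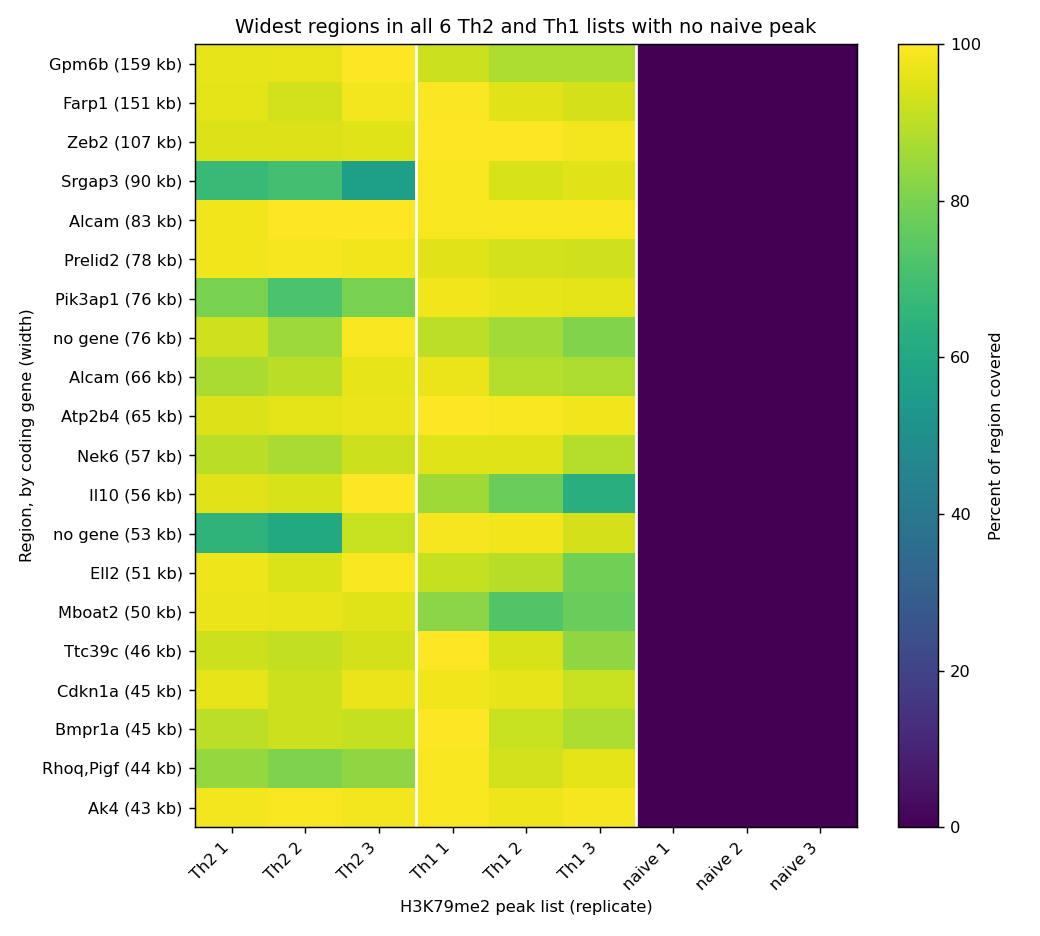
Percent of the region covered (colour) in each of the 9 peak lists (columns, 3 replicates each of Th2, Th1 and naive cells) for the 20 widest regions that all 6 Th2 and Th1 lists marked and no naive list touched (rows, named by coding gene with the width). Th2 and Th1 columns lie between 56.3 and 100%, and all naive columns are at 0, as the choice of rows requires.

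Ranked by the authors' fold enrichment within lists, the strongest of the 192 lay on Bhlhe40, a basic helix-loop-helix factor needed for cytokine production by T helper cells (chr6:108660619-108696296, 35.7 kb). Its best peak stood at percentile 99.5, 99.8 and 99.9 within the Th2 lists and at 93.1, 98.9 and 99.8 within the Th1 lists, a mean of 98.5. Coverage was 72.5, 57.2 and 88.6% in Th2 lists and 97.0, 85.5 and 77.8% in Th1 lists, in 4 to 6 peaks and 2 to 7 peaks, so the region was broken into several peaks, while the 6.30-kb gene at its edge was covered by 99.8% in both groups and by 0% in naive lists. Cdkn1a (percentile 97.9), Ak4 (97.6), Nek6 (97.6), Farp1 (96.1), Atp2b4 (95.2), D630039A03Rik (94.4), the region of Rhoq and Pigf (93.8), Pros1 (93.8) and Fzd7 (92.7) followed. Pros1, which encodes the anticoagulant protein S, a ligand of TAM receptors, stood at percentile 99.3, 99.6 and 99.6 within the Th2 lists and at 88.3, 88.3 and 87.5 within the Th1 lists over a 21.8-kb region.

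Among regions that naive lists covered in part, the widest lay on Chst11, a chondroitin sulfotransferase (chr10:82982895-83195651, 213 kb), with 61.8, 66.5 and 82.3% in Th2 lists, 99.4, 98.9 and 98.1% in Th1 lists and 5.41 to 6.05% in naive lists. Gnaq, a G protein subunit (208 kb), followed, then a 190.5-kb region from Il21 across Cetn4 and Bbs12 into Fgf2, Setbp1 (187 kb) and Rbpj (183 kb). Il21, the cytokine of follicular helper T cells that acts on B cells, was covered by 100% in every Th2 and Th1 list and by 36.1, 47.9 and 41.9% in naive lists. Its region had 99.0, 99.5 and 99.1% in Th2 lists and 83.0, 82.5 and 85.8% in Th1 lists. In Hif1a, the oxygen-sensing factor that drives glycolytic genes, a 146-kb region (chr12:73811457-73957319) had 89.96, 90.8 and 93.1% in Th2 lists, 97.6, 95.7 and 94.4% in Th1 lists and 23.9, 22.4 and 24.2% in naive lists, while the 46.2-kb gene was at 100% in all 6 polarised lists and at 67.4 ± 1.44% in naive lists (SD, n = 3). The region thus reached beyond both ends of a gene that naive cells had already marked.

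The 582 coding genes that hold a region, 2.69% of all 21627 and 4.79% of the 12154 with a peak in any list, varied in how far naive lists covered them. The highest naive list covered under 10% of the gene in 252, of which 152 (26.1% of all hosts) had no covered base. In 224 the highest naive list covered at least 10% and the naive mean was under 50%. In 106 (18.2%) the naive mean was at least 50%, and there the regions were stretches left out or flanks. Host genes were long, with a median of 38.1 kb against 17.3 kb for all coding genes, and 102 held at least 2 regions. Kcnq5, a potassium channel gene of 564 kb, and Rabgap1l each held 11, Spidr held 8, and Jazf1, Cenpp and Enox2 held 7. Kcnq5 was covered by 58.8, 55.1 and 56.9% in Th2 lists, 51.9, 43.9 and 37.8% in Th1 lists and 4.85, 3.70 and 4.64% in naive lists. By summed length the order was Kcnq5 (297 kb), Atxn1 (230 kb), Chst11 (211 kb), Enox2 (209 kb) and Gnaq (202 kb).

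Gene lists of T cell biology held regions at shares of 0 to 34.7%. Over all 18 lists, 73 genes had a region. Of these, 26 were bare in all 3 naive lists, 57 averaged under 50% in naive lists and 16 averaged 50% or more. In 8 of the 26 bare genes the Th2 mean and the Th1 mean were both at least 95% of the gene. The counts describe which genes the regions touch and were not tested.

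**Figure D3:**
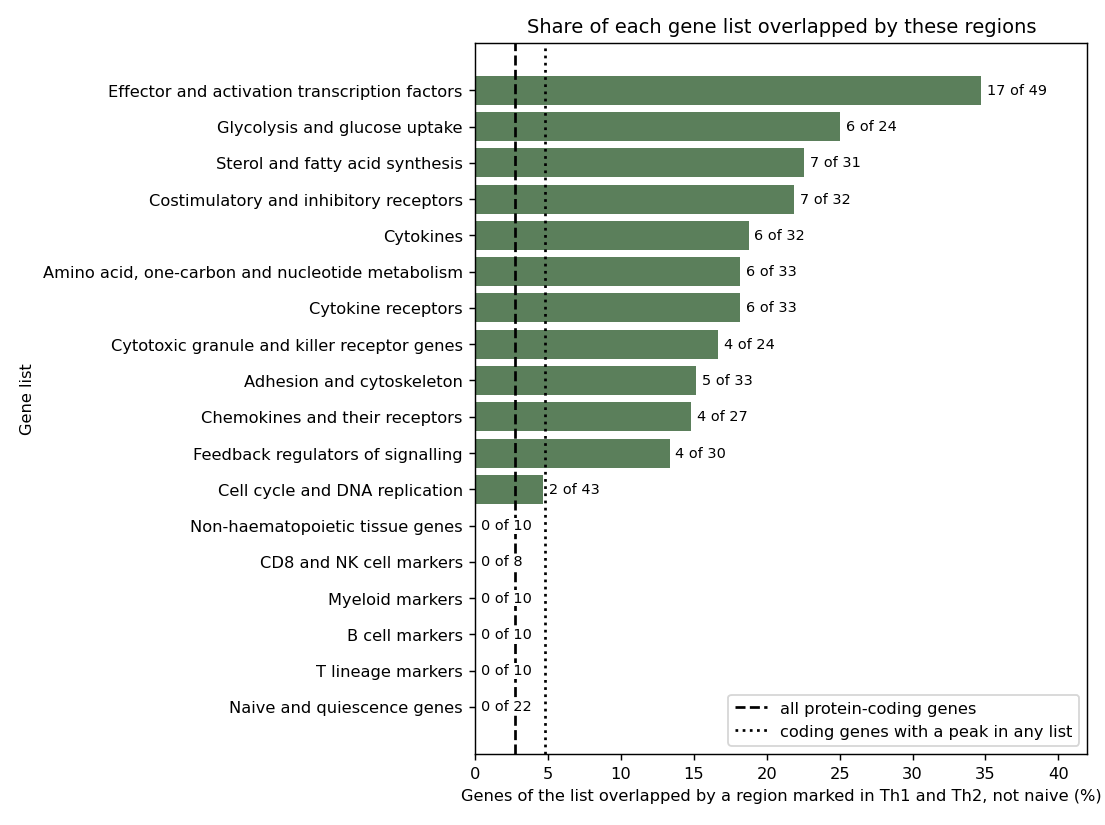
Percent of the genes of each list (rows) that are overlapped by a region marked in Th1 and Th2 but not naive lists, with counts beside the bars; the dashed line is the share of all protein-coding genes (2.69%) and the dotted line that of coding genes with a peak in any list (4.79%). Effector and activation transcription factors have the longest bar, with 17 of 49, and 6 lists have none.

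Transcription factors of effector and activated T cells had the highest share, 17 of 49 (34.7%). Tbx21, which encodes the Th1 regulator T-bet, was bare in naive lists and covered by 99.9 ± 0.160% in Th2 and 100% in Th1 lists (SD, n = 3). Its 95.8-kb region (chr11:97092030-97187823) had 87.7, 89.7 and 95.4% in Th2 lists, 98.9, 97.7 and 98.9% in Th1 lists and 25.5, 26.1 and 28.6% in naive lists, and runs on over Tbkbp1 and into Kpnb1. The naive part lay mostly in Kpnb1, which naive lists covered by 86.8, 86.8 and 89.3%, while Tbkbp1 was at 0, 0 and 14.2%. The T-bet gene was thus marked from end to end in both kinds of polarised cell. Batf3, a basic leucine zipper factor, was likewise bare in naive lists and at 100% in Th2 and 99.9 ± 0.115% in Th1 lists. Nfil3 was at 100% in all 6 polarised lists and at 6.20 ± 3.39% in naive lists, Maf, an activator of Il10 and Il4, at 100% and 11.1 ± 19.25%, and Irf8 at 86.0 ± 3.94% in Th2, 93.5 ± 0.917% in Th1 and 28.9 ± 7.40% in naive lists. Runx3, Rbpj, the DNA-binding partner of Notch, Fosl2 and Nr4a3 had a naive mean of 39.6 to 54.2% and a mean of 69.7 to 98.9% in both polarised groups. Over the whole gene, Prdm1, which encodes Blimp-1, and Irf5 stayed low, with 23.9 ± 1.14% and 9.15 ± 3.22% in Th2 and 26.1 ± 1.05% and 18.4 ± 4.38% in Th1 lists. The 32.3-kb region that holds a listed Prdm1 start was at 79.5 ± 10.8% in Th2, 94.1 ± 5.17% in Th1 and 26.9 ± 6.06% in naive lists. Batf itself was already at 98.3 ± 1.92% in naive lists, and its region was the flank. Zeb2, Bhlhe40, Hif1a, Nr4a2 and Crem complete the 17; Nr4a2 and Irf5 overlap other genes.

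Receptors and their ligands are described next, in no order of share. Of 33 cytokine receptor genes 6 (18.2%) held a region. Il2ra, which encodes the IL-2 receptor alpha chain CD25, a classic mark of activation, was covered by 79.8 ± 0.828% in Th2, 91.9 ± 1.42% in Th1 and 38.5 ± 0.910% in naive lists (SD, n = 3). Its 95.6-kb region with Rbm17 (chr2:11594295-11689852) had 92.2, 92.6 and 93.0% in Th2 lists in 1 or 2 peaks, 100, 98.7 and 98.5% in Th1 lists in 1 or 2 peaks, and 41.2, 37.9 and 38.3% in naive lists in 11 to 14 peaks. Naive peaks were scattered over a stretch that the polarised lists covered in 1 or 2 peaks. Il2rb, the beta chain shared with IL-15, was at 100% in Th2, 98.3 ± 1.53% in Th1 and 50.35 ± 3.20% in naive lists. Il12rb2, the signalling chain for IL-12, was at 70.7 ± 3.08% in Th2, 96.4 ± 1.54% in Th1 and 29.3 ± 1.93% in naive lists, and overlaps Serbp1. Il1r2, a decoy receptor for IL-1, and Crlf2, a chain of the TSLP receptor, were bare in naive lists but short of 30% in both polarised groups, and Il10ra was at 99.8 ± 0.351% in naive lists already.

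**Figure D4:**
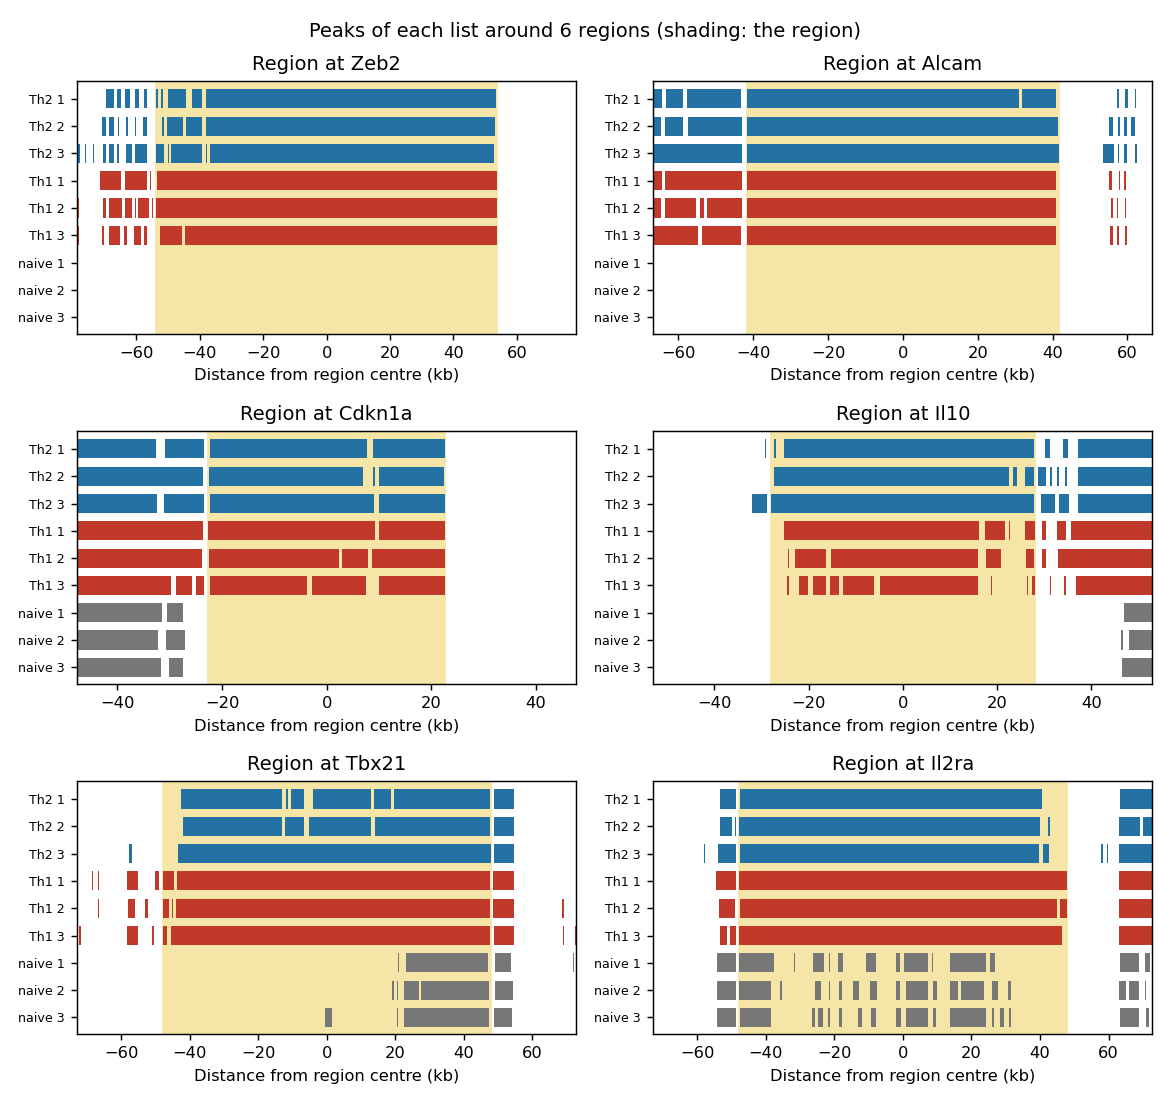
Merged peaks of each of the 9 lists (rows: Th2, Th1, naive, 3 replicates each) around 6 regions, against the distance from the region's centre in kb; shading marks the region. At Zeb2, Alcam, Cdkn1a and Il10 no naive peak falls in the shading, at Tbx21 the naive peaks lie in the right-hand part, and at Il2ra they are scattered over the region.

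Of 32 cytokine genes 6 (18.8%) held a region. Il10 and Il21 are described above. Fasl, the death ligand, and Tnfsf14 were at 100% in all polarised lists, against 78.0 ± 4.27% and 31.3 ± 25.3% in naive lists, Tnfsf4, which encodes OX40L, was at 67.9 ± 11.6% in Th2, 68.8 ± 9.90% in Th1 and 0% in naive lists, and Csf1 at 24.7 ± 5.39% in Th2, 37.4 ± 7.45% in Th1 and 0% in naive lists (SD, n = 3 each). Of 27 chemokine and chemokine receptor genes 4 (14.8%) held one. Among them, the chemokine receptor gene Ccr2 was at 77.5 ± 25.2% in Th2 and 100% in Th1 lists, Cxcr3 at 61.8 ± 31.8% in Th2 and 90.9 ± 4.90% in Th1 lists, and Ccr3 at 18.8 ± 11.1% in Th2 and 33.7 ± 15.7% in Th1 lists (SD, n = 3 each). None of these 3 had a covered base in any naive list.

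Of 32 costimulatory and inhibitory receptor genes 7 (21.9%) held a region: Icos, Ctla4, Havcr2, Tigit, Tnfrsf8, Slamf7 and Entpd1. Havcr2, which encodes TIM-3, was bare in naive lists and at 84.35 ± 10.1% in Th2 and 88.8 ± 7.77% in Th1 lists (SD, n = 3). Slamf7 was at 100% in all 6 polarised lists and at 18.05 ± 1.19% in naive lists, and Tnfrsf8, which encodes CD30, at 59.7 ± 9.06% in Th2, 61.4 ± 14.1% in Th1 and 1.86 ± 1.52% in naive lists. Ctla4, the inhibitory receptor that competes with CD28, was at 98.9 ± 1.21% in naive lists and at 100% in polarised lists, so its 79.6-kb region marked the flanks of the gene. Of 24 genes of cytotoxic granules and killer receptors 4 (16.7%) held one. Gzmb, the granule protease granzyme B, was at 95.1 ± 4.32% in Th2, 100% in Th1 and 0% in naive lists, and Nkg7 at 53.6 ± 50.4% in Th2, 100% in Th1 and 0% in naive lists, its 3 Th2 lists being far apart.

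Metabolic lists held regions at 18.2 to 25%. Glycolysis had 6 of 24 (25%). Hk2, the inducible hexokinase, was at 86.2 ± 0.426% in Th2, 92.0 ± 3.28% in Th1 and 3.85 ± 1.70% in naive lists (SD, n = 3), and its 50.9-kb region (chr6:82727354-82778260) had 91.1, 87.4 and 91.6% in Th2 lists, 96.6, 94.6 and 89.2% in Th1 lists and 4.25, 5.08 and 1.90% in naive lists. Pgk1 was at 94.9 ± 5.35% in Th2, 98.3 ± 1.11% in Th1 and 58.6 ± 2.26% in naive lists, and Aldoc at 79.1 ± 6.52% in Th2, 76.1 ± 12.4% in Th1 and 17.2 ± 19.7% in naive lists. Pfkp, Pfkfb3 and Pfkfb4 were touched only by regions of 0.908 to 5.11 kb. Of 31 genes of sterol and fatty acid synthesis 7 (22.6%) held one. Among these, Sqle, squalene epoxidase, was at 75.75 ± 2.86% in Th2, 87.6 ± 4.87% in Th1 and 42.2 ± 5.13% in naive lists, and Lss, lanosterol synthase, the next enzyme of the pathway, at 59.4 ± 2.99% in Th2, 63.7 ± 4.02% in Th1 and 14.4 ± 4.23% in naive lists. Msmo1, Sc5d, Hsd17b7, Insig1 and Fads2 were the others. Of 33 genes of amino acid, one-carbon and nucleotide metabolism 6 (18.2%) held one. Chac1, a glutathione-degrading enzyme induced by amino acid shortage, was at 100% in Th2, 97.9 ± 3.45% in Th1 and 0% in naive lists. Trib3 was at 89.35 ± 3.12% in Th2, 75.7 ± 11.1% in Th1 and 26.3 ± 7.89% in naive lists, and Asns, asparagine synthetase, at 39.8 ± 1.46% in Th2, 34.8 ± 3.10% in Th1 and 0% in naive lists.

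Lists of signalling feedback and of adhesion held regions at 4 of 30 (13.3%) and 5 of 33 (15.2%). Spry1, an inhibitor of receptor tyrosine kinase signals, and Rgs1, a brake on G protein signals, were at 100% in all polarised lists, against 29.3 ± 20.75% and 36.85 ± 17.4% in naive lists (SD, n = 3). Rgs16 was at 96.7 ± 3.03% in Th2, 99.64 ± 0.621% in Th1 and 8.16 ± 10.4% in naive lists, and Lgals3, galectin-3, at 76.1 ± 0.697% in Th2, 81.0 ± 7.52% in Th1 and 0.972 ± 1.68% in naive lists. The cell cycle list held regions at 2 of 43 genes (4.65%, close to the 4.79% of coding genes with a peak in any list): Cdkn1a, and E2f3 within its body. The genes of that list were already covered in naive cells, with a median of 87.0% in Th2, 90.2% in Th1 and 85.1% in naive lists. No gene of the naive and quiescence list held a region, 0 of 22.

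Marker lists of cell identity held no region: 0 of 10 for the T lineage, 0 of 10 for B cells, 0 of 10 for myeloid cells, 0 of 8 for CD8 T and NK cells and 0 of 10 for non-haematopoietic tissue. Of all coding genes 2.69% held a region, and lists this short may hold 0 at that share. All 10 T lineage markers were covered over 50% in each of the 3 groups, and the rule left out regions that a naive list covered by 50%. Summed over the list, B cell markers had 119 to 121 points of coverage in Th2, 118 to 123 in Th1 and 158 to 217 in naive lists. Of these 10 genes, 6 were at 0 in Th2, 7 in Th1 and 5 in naive lists. CD8 and NK markers, with Cd8a and Cd8b1 among them, had 109.9 to 141 points in Th2, 129 to 166 in Th1 and 303 to 305 in naive lists, with 3 of 8 genes at 0 in Th2, 3 in Th1 and 4 in naive lists. Myeloid markers had 2.35 to 5.99 points in Th2, 1.51 to 3.17 in Th1 and 12.4 to 17.4 in naive lists. Markers of non-haematopoietic tissue had 0 to 6.23 points in Th2, 0 to 1.82 in Th1 and 7.42 to 9.62 in naive lists. The B cell, CD8 and NK, myeloid and non-haematopoietic lists were thus all higher in naive lists, and their part in the values here was not tested. In cell populations, fewer cells with a mark and less of the mark per cell cannot be told apart.

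The rule asked the same presence of Th2 and Th1 lists and did not use the difference between them. It did use the same coverage values, so calls among the 1105 regions are given to name regions, and their number is a description from which nothing about the set is read. Percent covered was tested with limma across all 60558 union regions, and a call needed at least 25 points of difference beside an adjusted p (Benjamini-Hochberg) under 0.05. Of the regions, 101 (9.14%) were called, against 5.88% of all union regions. In Th2 cells 52 (4.71%, against 3.93% of all) were higher and 49 (4.43%, against 1.94% of all) were lower than in Th1 cells. The rule bounds these differences, because both groups had to reach 50% in 2 lists. The median difference of Th2 minus Th1 was 2.76 points, and 898 regions (81.3%, against 57.7% of all union regions) lay within 25 points. An unadjusted limma p under 0.05 was found in 333 (30.1%, against 17.0% of all). A region that was not called is not shown to be alike in both groups. The counts depend on single libraries. Without Th2 replicate 3 or Th1 replicate 3, 31 and 32 were higher in Th2, and without Th1 replicate 1, Th1 replicate 2 or Th2 replicate 1, 24, 24 and 32 were lower.

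**Figure D5:**
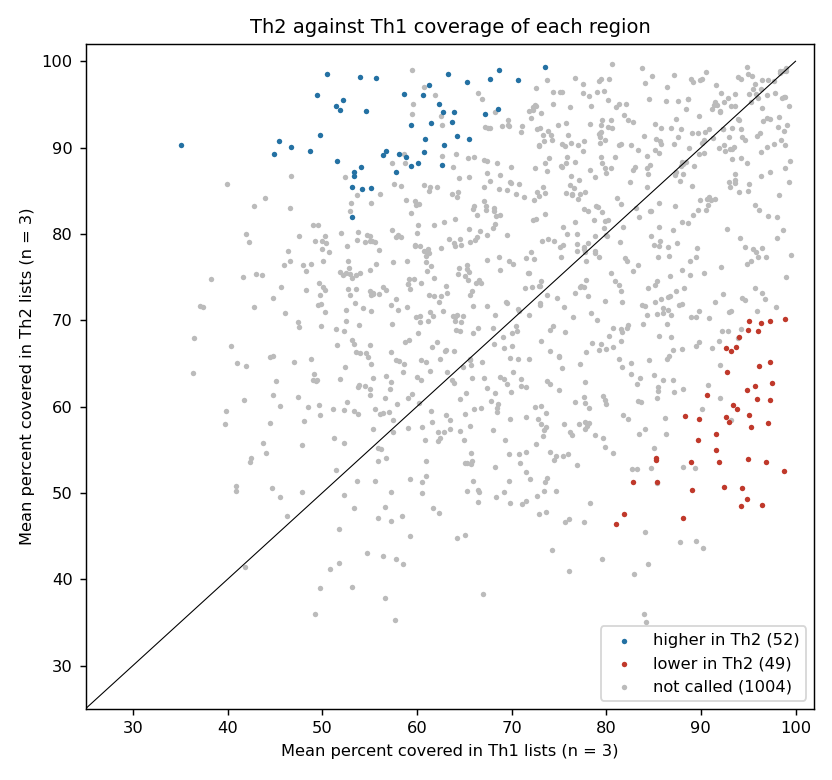
Mean percent covered in the 3 Th2 lists (vertical axis) against that in the 3 Th1 lists (horizontal axis) for each of the 1105 regions; blue points are the 52 called higher in Th2, red points the 49 called lower, grey points were not called and the line marks equal values. Most points lie above 50% on both axes, which the choice of regions favours.

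The region at Batf, the AP-1 family factor needed for Th17 and follicular helper cells and active in Th2 cells in mice, was among those higher in Th2 (chr12:85658967-85712585, 53.6 kb). It had 96.6, 99.2 and 99.9% in Th2 lists, 50.2, 49.5 and 51.7% in Th1 lists and 43.3, 45.7 and 43.4% in naive lists. The Th2 lists lay far above the Th1 lists, which lay just above the naive ones, and the difference was 48.1 points (SE 4.23, limma adjusted p = 8.66e-05). As the gene itself was covered in all 3 groups, the difference lay in its flank. Babam2 had the largest difference, 55.2 points (SE 13.2, limma adjusted p = 0.0248), with 84.0, 86.9 and 100% in Th2 lists, against 50.5, 54.9 and 0% in Th1 lists. Rcl1 (46.7 points), Jag2, a Notch ligand (45.3 points), Spef2 (44.4 points), the region of Fgf2 and Nudt6 (44.3 points), Gm35818 (43.4 points) and Itpr1, an intracellular calcium channel (43.4 points), were next. Some of these calls ended when 1 library was left out. Babam2 was not called without any 1 of the Th2 or naive libraries (50.3 to 58.3 points), nor was Jag2 without Th2 replicate 2 or 3 (44.7 and 41.2 points). Gm35818 was not called with stricter peaks, of −log10 q of at least 5 (31.5 points), and Babam2 and Itpr1 had no result with them. Spef2 was not called without Th1 replicate 3 (30.5 points) or any 1 of the Th2 or naive libraries (39.1 to 47.5 points), nor was Itpr1 without Th1 replicate 3 (33.1 points), any 1 of the Th2 libraries (39.5 to 47.1 points) or naive replicate 2 or 3. An 85.3-kb region outside genes, next to the Rbpj region (chr5:53380825-53466171) had 95.7, 92.8 and 98.0% in Th2 lists, 60.4, 59.7 and 36.6% in Th1 lists and no naive peak (43.3 points, SE 7.86, limma adjusted p = 0.00536), and it was not called with the stricter peaks (51.3 points, limma adjusted p = 0.0522).

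Lower in Th2 cells were Map3k5, which encodes the stress kinase ASK1 (-47.9 points), a region outside genes (chr1:144345648-144356091, -46.3 points), Slc17a6 (-45.8 points), Pmaip1, the p53 target NOXA (-45.5 points), Gm46963 (-43.8 points), Snx8 (-43.2 points), Gm41954 (-41.8 points), Lancl3 (-41.0 points), a second Srgap3 region (-41.0 points) and Irf8 (-39.0 points). Irf8, an interferon regulatory factor of myeloid and Th1-type programmes, had 60.8, 58.6 and 54.96% in Th2 lists, 100, 97.9 and 93.2% in Th1 lists and 8.60, 8.49 and 11.7% in naive lists over a 64.3-kb region (SE 5.70, limma adjusted p = 0.0014). All 3 Th2 lists lay below all 3 Th1 lists. Each Th2 list marked the region, so the choice of regions placed these lists above all 3 naive lists. Slc17a6 was not called without Th2 replicate 3 (-53.4 points) or any 1 of the Th1 or naive libraries (-49.1 to -43.0 points). Snx8 was not called without Th1 replicate 1 or 2 or naive replicate 1 (-43.2 to -41.7 points), nor was the second Srgap3 region without Th1 replicate 1 (-35.4 points). With the stricter peaks, 4 of these calls ended: Map3k5 (-32.1 points), the chromosome 1 region outside genes (-61.1 points), Snx8 (-66.3 points) and the second Srgap3 region (-33.1 points), with limma adjusted p-values of 0.184 to 0.568. Slc17a6 and Lancl3 had no result with the stricter peaks, so their calls were not tested there.

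Among the 76 regions on list genes, 2 (2.63%, against 3.93% of all union regions) were higher and 7 (9.21%, against 1.94% of all) lower in Th2 cells. Besides Batf, the higher one lay on Hsd17b7, a sterol synthesis enzyme, with 94.8, 78.9 and 94.9% in Th2 lists, 54.9, 52.8 and 38.4% in Th1 lists and no naive peak (40.9 points, SE 8.12, limma adjusted p = 0.00907). Besides Irf8, the lower ones lay on Rgs1 (-35.0 points), the calcium-binding S100a6 (-34.9 points), Gzmb (-32.2 points), Sc5d (-31.2 points), the Nkg7 stretch (-26.7 points) and the Sema7a stretch (-25.8 points). S100a6 was not called without Th1 replicate 1 or 2 (-33.6 and -35.1 points), nor the Nkg7 stretch without Th2 replicate 2 (-23.8 points). The Sema7a stretch was not called without any 1 of the Th1 libraries or without Th2 replicate 1 or 2 (-26.3 to -21.9 points). With the stricter peaks Hsd17b7 (40.6 points), the Nkg7 stretch (-22.0 points) and Sc5d (-19.7 points) were not called. The Gzmb region (chr14:56254903-56305052) had 65.7, 57.6 and 72.0% in Th2 lists, 98.5, 98.4 and 95.04% in Th1 lists and 35.9, 35.1 and 37.9% in naive lists. Rgs1 had 60.3, 52.2 and 70.3% in Th2 lists, 99.3, 93.3 and 95.2% in Th1 lists and 1.42, 4.14 and 3.28% in naive lists. In both, every Th2 list lay below every Th1 list. Each Th2 list reached the 50% limit that the rule kept naive lists below. The genes themselves were at 100% (Rgs1) and 95.1 ± 4.32% (Gzmb) in Th2 and at 100% in Th1 lists. S100a6 was at 90.4 ± 6.39% in Th2 and 97.1 ± 2.73% in Th1 lists, and Sema7a at 98.4 ± 2.85% and 100%. For these genes most of the region's difference lay outside the gene. Sc5d was itself at 64.4 ± 8.06% in Th2 and 92.6 ± 7.11% in Th1 lists, and Nkg7 at 53.6 ± 50.4% and 100%. Regions on Nfil3 (24.2 points), Rbpj (24.1 points) and Il21 (15.5 points) had limma adjusted p-values of 0.017, 0.0149 and 0.0274 and differences under 25 points. Rbpj passed both limits without Th1 replicate 1 or 2 (28.3 and 25.8 points), and Nfil3 without Th1 replicate 1 or Th2 replicate 1 (26.1 and 25.03 points). The Il10 region missed the threshold (21.1 points, SE 6.51, limma adjusted p = 0.0863), though it passed without Th1 replicate 1 (26.3 points). Zeb2, Cdkn1a and the widest Alcam region differed by -4.48, -0.0543 and 0.187 points between Th2 and Th1 cells (SE 4.12, 4.48 and 3.96), and a limma adjusted p of 0.565, 1 and 1 does not show that the groups are alike.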

How the data were processed

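The authors deposited 1 broad peak list for each of 9 H3K79me2 libraries; the 9 input libraries entered no step. Reads were handled with MACS2, SAMtools, Picard and Bowtie2 on mm10, per the submitters' processing notes. How inputs were used, and which versions and settings, is not given in the sources used here. Along with its position, each deposited peak holds 4 values by the authors: a fold enrichment, which is a ratio to the caller's background, a score for display, and the p-value and q-value as −log10. All score values were 10 times the −log10 q value in the deposited lists. They served only for ranking within a list or for a stricter peak limit. Read depth is unknown, so no counting interval was set, and a deeper or cleaner library would cover more sequence.

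Peaks on chromosomes 1 to 19 and X were merged, and the percent of each union region covered was computed with Python 3.11.15, numpy 2.4.6 and pandas 2.3.3. Th2 minus Th1 was tested with limma 3.58.1 in R 4.3.3 (lmFit, eBayes with trend) on 9 lists and all regions, with Benjamini-Hochberg adjusted p under 0.05 and at least 25 points; the code was checked on simulated data, where it recovered a minority of the moved regions and made false calls above the nominal rate, so calls may be incomplete and some may be false. No replicate block was used, since same-numbered libraries did not deviate together (correlations -0.0193 to 0.0179). No pair of lists shared more than 1 identical peak. The members, the 18 gene lists (453 genes) and the tests were chosen with earlier results of these data known. Named were the 20 widest and 10 strongest regions present in all 6 Th2 and Th1 lists with no naive peak, all regions on list genes, the 10 largest called differences in each direction, the 3 regions nearest each side of a limit and the 5 genes with most regions or bases. The widest regions with a naive part, on noncoding genes and outside genes, and the microRNAs, were named after their values were seen. Genes came from the RefSeq table of GRCm38.p6, which has no strand, and starts and microRNAs from RefSeq sequence tables without chromosome 18 starts. Those tables listed starts for 17273 of the 21627 coding genes. Coordinates are 1-based. Alternatives were other coverage limits, stricter peaks, matched covered length, other merging, tiles, a replicate block, other fits and leaving out each library. A result at 1 named gene is not reported here.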

Additional observations from a re-analysis of the deposited data

How the results depend on the processing

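The number of regions moved with how presence is defined. It was 1966 at 25% covered, 604 at 75%, 2362 at any overlap, 442 with peaks of −log10 q of at least 5, 1856 with lists cut to matched covered length, 552 with all 3 lists of both groups, 491 with naive lists at 0%, 701 with peaks within 1 kb merged and 2944 as 5-kb tiles. The summed length moved by over 1.5 times with matched length (26.3 Mb) and with naive lists at 0% (4.47 Mb). Leaving out 1 list gave 877 to 1213 regions and 14.2 to 17.3 Mb. Of the bases described, 27.4% were kept at any overlap, 45.8% at the stricter q and 86.8% at matched length. Counting only regions with at least 50% of their bases inside a coding gene gave 57.2% in place of 63.0%. Of the Th2 against Th1 calls, 31 to 70 were higher in Th2 and 24 to 65 lower when 1 list was left out, and 100 were lower at matched length. With the replicate block 44 were higher and 42 lower, and 81 of the 101 calls were shared; the number shared was lowest with the stricter q (52) and, among lists left out, without Th1 replicate 2 (55). For the 27 called regions named, 376 of 428 comparisons with alternatives kept the call, 52 lost it with the same direction, 0 reversed, and 11 regions kept it throughout. A region with the same coverage in all lists was not fitted, and a missing result is not counted as a loss. Babam2, Itpr1, Slc17a6 and Lancl3 had no result with the stricter q, and Lancl3 is among the 11. Missing results are also left out for the regions not called. Of 67 regions on list genes that were not called, 57 stayed so throughout, and 20 of their 1056 comparisons gave a call, among them Cxcr3 at matched length (-84.6 points, against -19.1 points before). The cause was not tested. Read depth, not given, limits how far a bare region in a list can be read as unmarked.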

Other observations

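Long noncoding genes carried some of the widest regions, chosen here after their values were seen. Morrbid, a noncoding RNA that controls the lifespan of short-lived myeloid cells in mice, lay in a 149.9-kb region (chr2:128330530-128480399). It was covered by 87.2, 94.1 and 99.1% in Th2 lists, 98.6, 97.3 and 95.03% in Th1 lists and 6.84, 8.12 and 7.84% in naive lists. Pvt1, the neighbour of Myc, held a 40.01-kb region with 91.6, 93.0 and 91.8% in Th2 lists, 99.9, 93.0 and 89.9% in Th1 lists and 40.2, 39.1 and 46.3% in naive lists. All polarised lists marked both regions, so the choice of regions placed those lists above all naive lists.

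Some domains had no gene under them in the RefSeq table. The widest without any naive peak, besides the one before Rbpj, was a 75.9-kb stretch (chr15:62770320-62846171), on the same chromosome as Pvt1, with 92.6, 85.5 and 98.9% in Th2 lists and 90.1, 86.1 and 81.1% in Th1 lists. A 53.3-kb stretch (chr13:51927889-51981178) had 65.1, 60.8 and 91.6% in Th2 lists and 98.6, 97.9 and 93.7% in Th1 lists. By chromosome, the share of union regions that met the rule ran from 1.23% on chromosome 11 to 2.54% on chromosome 16.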
